A study of Mus musculus with 8 samples.

Results

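Iron and haem handling in cultured mouse macrophages was followed through 10 genes: Slc48a1, Hmox1, Blvrb, Slc40a1, Tfrc, Slc11a1, Slc11a2, Fth1, Ftl1 and Fech. They were taken by name, as every non-control array probe whose gene name was 1 of these symbols. That rule uses no measured value, but the list of symbols was drawn up with earlier results of these data known. The 10 genes had 14 probes, out of 36331 gene names and 55681 probes on the array. All 10 were among the 27957 genes that passed the filter on dim probes (well above background on each array of some group). All 14 probes were well above background on each of the 8 arrays, so none of the genes passed through a single bright group.

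The cells were bone marrow-derived macrophages (BMM) from female mice aged 6 to 8 weeks, cultured over 6 days with L929-conditioned medium, which supplies CSF1, a growth factor macrophages need. The wild-type (WT) groups were labelled Cullin 3 wildtype and the knockout (KO) groups Cullin 3 knockout, Cullin 3 (Cul3) being the scaffold protein on which many ubiquitin ligases are built. Each genotype was left untreated or given lipopolysaccharide (LPS), a cell-wall component of Gram-negative bacteria, for 6 hours, which made 4 groups of 2 samples. The labels do not give the deleted part of Cul3, the means of deletion or the cells it acted in, and they do not say whether both samples of a group are separate mice or cultures. The p-values therefore rest on a spread that could be purely technical. The genotype comparisons ask what loss of Cullin 3 did to these genes at rest and after LPS, and the treatment comparisons ask how each genotype responded.

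Macrophages recover iron from engulfed red cells. Haem leaves the phagolysosome through the transporter SLC48A1 (HRG1), haem oxygenase 1 opens its ring to release iron, biliverdin and carbon monoxide, and biliverdin reductase turns biliverdin into bilirubin. The freed iron is stored in ferritin, a shell of FTH1 and FTL1 chains, or leaves the cell through ferroportin (SLC40A1), while the transferrin receptor and the divalent metal transporters of the SLC11 family bring iron in. Several of these genes are known targets of NRF2, a transcription factor that the KEAP1-Cullin 3 ligase marks for degradation, and the ferritin and transferrin receptor mRNAs are also controlled by iron-regulatory proteins. During inflammation macrophages are known to hold iron back from bacteria.

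The signal of a gene came from short probes, and where a probe sits decides which mRNA forms it sees. Of the 14 member probes, 6 held the polyadenylation signal AATAAA, the hexamer that precedes the end of most mRNAs, and 5 of these, with 3 others for comparison, are given here as stretches of 30 bases, 5′ to 3′ in the sense of the mRNA and with AATAAA in capitals. Among all 55681 probes, 10.1% held AATAAA on the probe strand and 3.74% on the other strand. The stretches were read from the array files, and coordinates are the files' own for the whole probe, on mm9.
Slc48a1, chr15:97623060-97623119, plus strand: gactttaaagcaAATAAAacatatattgtt
Blvrb, chr7:28250944-28251000, plus strand: aatagaggggtcAATAAAtttttagccaaa
Slc40a1, chr1:45965255-45965314, minus strand: cctttcaatatccctgagaagAATAAAgaa
Ftl1, chr7:52713309-52713368, minus strand: ggaccaagtaaaAATAAAgctttttgagac
Slc11a2, main probe, chr15:100218333-100218392, minus strand: catccttgttatAATAAAgttcatgcttaa
Slc11a2, second probe, chr15:100240516-100240575, minus strand: gagactctgaggagcccttcaccacctact
Hmox1, main probe, chr8:77624207-77624266, plus strand: atggttgtaagcatccatgttgactgacca
Hmox1, second probe, chr8:77620797-77620856, plus strand: atagagcgcaacaagcagaacccagtctat
Per the file headers, the Slc48a1, Slc40a1 and main Slc11a2 probes began at transcript bases 2462, 2980 and 2961, while the second Slc11a2 and second Hmox1 probes began at bases 253 and 324 of theirs. No mm9 annotation was used here, so exon and untranslated region are not stated.

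Levels below are log2 values of the processed signal relative to each array's 75th percentile, so a step of 1 is a doubling, and they are compared between samples for 1 probe, never between genes. A gene was called when its adjusted p was under 0.05, from a limma model with Benjamini-Hochberg adjustment over all genes tested. Errors on changes are standard errors (SE). Where groups are said not to overlap, this is description only, since its share over all genes was not counted. Without LPS the genotypes also did not overlap for uncalled genes such as Fech and Fth1.

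**Figure D1:**
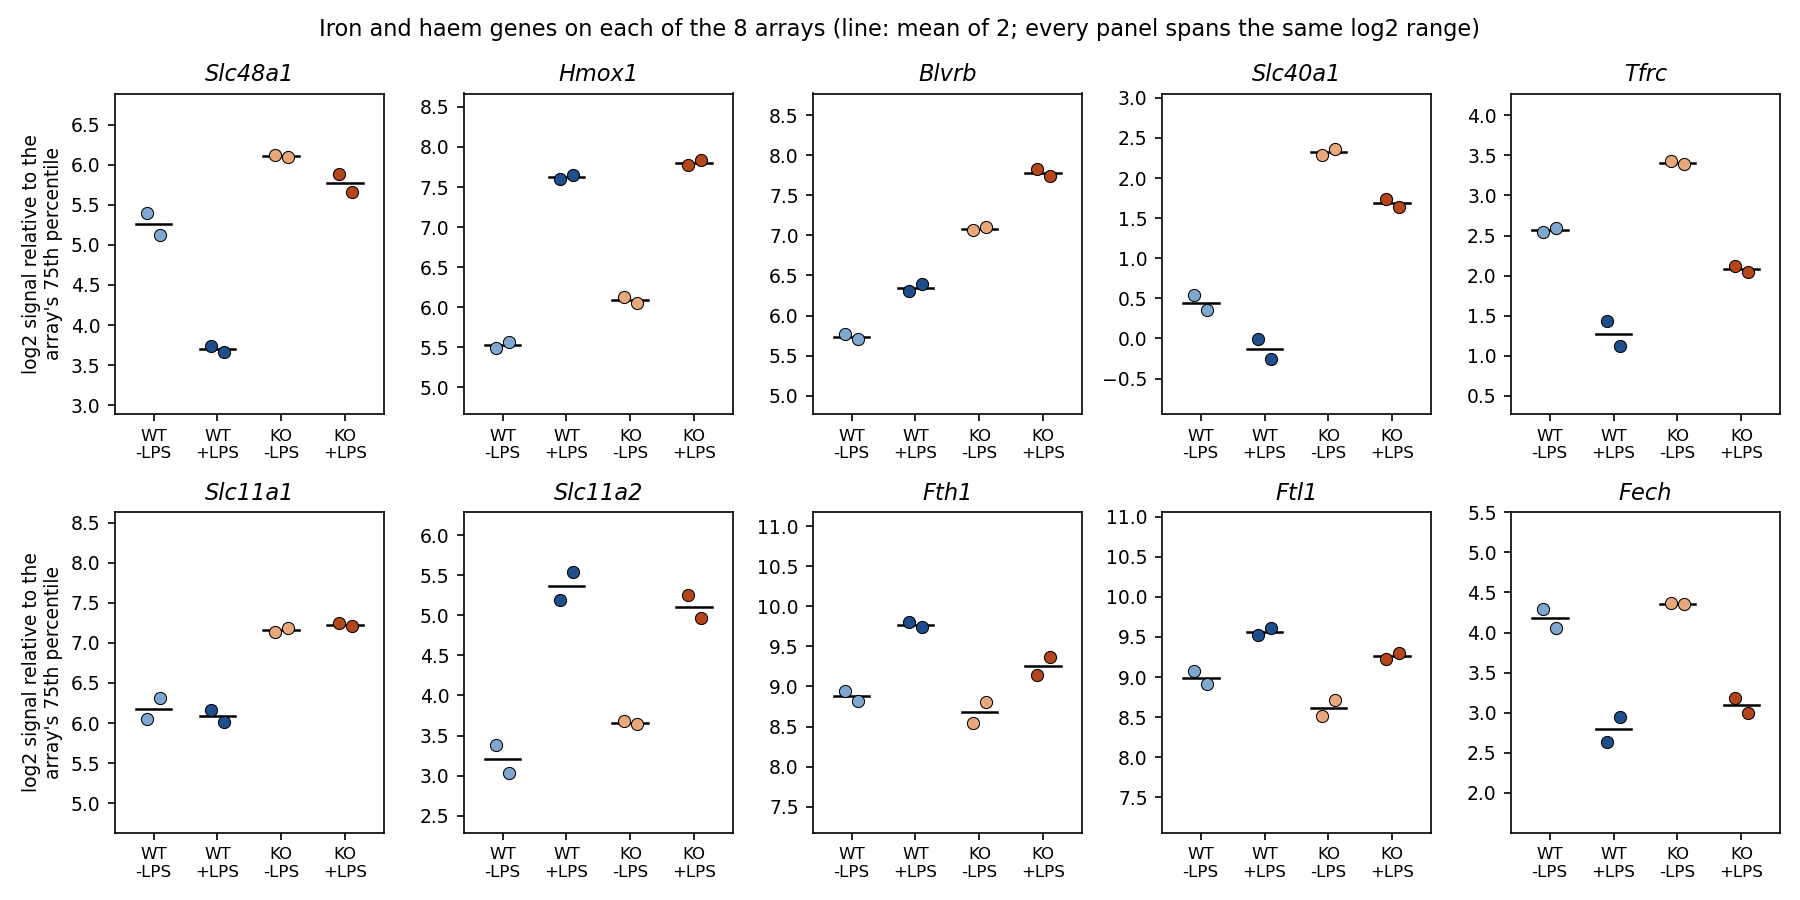
Log2 signal of each of the 10 genes relative to the array's 75th percentile (vertical axis, the same span in every panel) in the 4 groups (horizontal axis), with a point per array and a line at the mean of the 2. Slc40a1, Blvrb, Slc11a1 and Tfrc stood higher in both KO groups than in the WT group of the same treatment, and Slc48a1 fell to a mean of 3.70 in WT cells with LPS but stood at 5.77 in KO cells with LPS.

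Without LPS, 5 of the 10 genes were higher in KO cells and none was lower by limma (6 higher and 1 lower, Ftl1, at an unadjusted p under 0.05). They were the iron exporter Slc40a1, the biliverdin and flavin reductase Blvrb, the metal transporter Slc11a1, the haem transporter Slc48a1 and the transferrin receptor Tfrc. Their excess ran from 3.69-fold for Slc40a1 down to 1.78-fold for Tfrc. Of all 27944 genes tested, 3.44% were called in either direction with 2.27% called higher and 1.17% lower. The 10 genes had a median log2 change of 0.70, beside 0.05 for all genes. With LPS the same 5 genes were higher in KO cells and again none was lower by limma (5 higher and 1 lower, Fth1, at an unadjusted p under 0.05), with Slc48a1 now foremost at 4.2-fold. The background there was wider, since 16.5% of 27940 genes were called, 7.89% higher and 8.57% lower, and the medians were 0.55 for the 10 genes and -0.08 for all genes. Of the calls over all genes, 635 of 962 without LPS and 2205 of 4600 with LPS were higher, against 999 of 1253 and 3477 of 4234 with the deposited values. All 5 genes stayed higher in KO cells under each of the 5 scalings (75th percentile, quantile, median, spike-in and the deposited unscaled values), though not always called. The ferritin chains, the haem-forming enzyme Fech, Slc11a2 and Hmox1 were called in neither genotype comparison. Without LPS, the calls of Slc48a1, Slc11a1 and Tfrc were lost when any 1 array of the WT untreated, KO untreated or KO LPS group was left out, with adjusted p up to 0.203, 0.153 and 0.196. Of the 5 genes only Slc40a1 and Blvrb were called there with a replicate block, and only Slc40a1 with the slide column as a block.

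**Figure D2:**
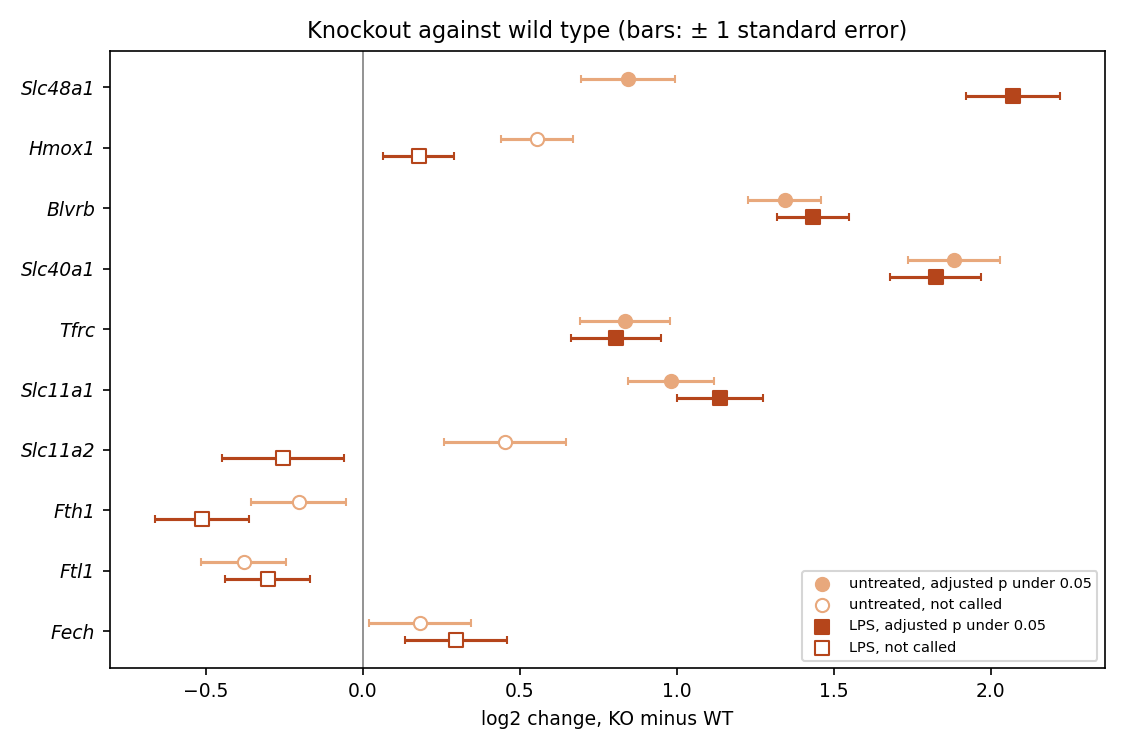
Log2 change of each gene in KO against WT cells (horizontal axis), without LPS (circles) and with LPS (squares), with bars of 1 SE and filled symbols for an adjusted p under 0.05. The 5 called genes are the same in both comparisons and all lie to the right of 0, from 0.81 for Tfrc with LPS to 2.07 for Slc48a1 with LPS.

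Slc48a1, which carries haem out of the phagolysosome, was the gene whose genotype difference grew most between the treatments. Its level was 5.39 and 5.13 in WT untreated cells, 3.74 and 3.66 in WT cells with LPS, 6.12 and 6.09 in KO untreated cells, and 5.88 and 5.65 in KO cells with LPS. The lowest KO array thus lay above the highest WT array. KO exceeded WT by 0.85 ± 0.15 without LPS (1.80-fold, adjusted p = 0.0415) and by 2.07 ± 0.15 with LPS (4.2-fold, adjusted p = 0.00141). In WT cells LPS lowered Slc48a1 by 1.56 on the log2 scale, at a change of -1.56 ± 0.15 (adjusted p = 0.000215). In KO cells its change was -0.34 ± 0.15, which was not called (adjusted p = 0.108), although it was called with quantile normalization (-0.90, adjusted p = 0.00200), median centring (-0.63, 0.0144) and the deposited unscaled values (-0.89, 0.00277). The difference between the responses was 1.23 ± 0.21 (95% interval 0.72 to 1.74, adjusted p = 0.0356), where 4.5% of all 27929 genes tested were called, 1.58% higher and 2.93% lower. It was the only member called there. This call was lost in 7 of the 8 fits that left out 1 array, all except the fit without WT LPS replicate 1, with differences between 1.09 and 1.36 and adjusted p up to 0.143.

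Hmox1, the inducible haem oxygenase, followed the treatment much more than the genotype. Its level was 5.50 and 5.57 in WT untreated cells, 7.60 and 7.65 in WT cells with LPS, 6.13 and 6.05 in KO untreated cells, and 7.78 and 7.84 in KO cells with LPS. The 4 groups did not overlap. The rise with LPS was 4.27-fold in WT cells (2.09 ± 0.11, adjusted p = 1.99e-05) and 3.29-fold in KO cells (1.72 ± 0.11, adjusted p = 6.09e-05). KO differed from WT by 0.56 ± 0.11 without LPS (95% interval 0.28 to 0.83, adjusted p = 0.0601), just outside the threshold, and by 0.18 ± 0.11 with LPS (adjusted p = 0.335). The difference without LPS was called under 3 of the 22 alternatives (a filter on all 8 arrays, trended moderation and normexp background correction), with an adjusted p down to 0.0130. The second Hmox1 probe, nearer the transcript's 5′ end, gave 0.12 ± 0.23 there and 1.86 ± 0.23 and 1.95 ± 0.23 for LPS in WT and KO.

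Blvrb, which encodes a biliverdin and flavin reductase, was higher in KO cells at rest and after LPS. It stood at 5.76 and 5.71 in WT untreated cells, 6.30 and 6.39 in WT cells with LPS, 7.06 and 7.10 in KO untreated cells, and 7.83 and 7.74 in KO cells with LPS. All 4 KO arrays were above all 4 WT arrays. The KO excess was 1.34 ± 0.12 without LPS (2.54-fold, adjusted p = 0.00480) and 1.43 ± 0.12 with LPS (2.70-fold, adjusted p = 0.00186). Without LPS the call was lost when either KO untreated array was left out (adjusted p = 0.0542 without replicate 1 and 0.0593 without replicate 2), and with LPS it held in all 23 alternatives. The other biliverdin reductase gene, Blvra, encodes the enzyme that reduces the main form of biliverdin made from haem. In KO cells it fell with LPS by 1.57 on the log2 scale (adjusted p = 8.31e-05 by limma). Its other comparisons are not reported here.

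Slc40a1 (ferroportin), the known iron exporter of mammalian cells, had the largest genotype difference of the 10 genes without LPS. Its level was 0.54 and 0.35 in WT untreated cells, -0.01 and -0.26 in WT cells with LPS, 2.29 and 2.37 in KO untreated cells, and 1.74 and 1.64 in KO cells with LPS. Even the LPS-treated KO arrays were above the untreated WT arrays. KO exceeded WT by 1.88 ± 0.15 without LPS (3.69-fold, adjusted p = 0.00349) and by 1.83 ± 0.15 with LPS (3.54-fold, adjusted p = 0.00179). Both calls held in all alternatives tried, 22 without LPS and 23 with LPS. LPS lowered Slc40a1 in both genotypes, by -0.58 ± 0.15 in WT cells (adjusted p = 0.0146) and -0.64 ± 0.15 in KO cells (adjusted p = 0.0120). The fall in WT cells was not called without WT untreated replicate 1 (adjusted p = 0.0733) or WT LPS replicate 2 (0.0502), nor that in KO cells without KO untreated replicate 1 (0.0520), KO untreated replicate 2 (0.0739) or KO LPS replicate 2 (0.0669).

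Tfrc, the receptor that takes up transferrin-bound iron, was read by 3 probes, and the main one was printed as 10 spots on each array. On that probe the level was 2.55 and 2.60 in WT untreated cells, 1.43 and 1.12 in WT cells with LPS, 3.42 and 3.39 in KO untreated cells, and 2.12 and 2.05 in KO cells with LPS. The 10 spots of an array, repeat readings of 1 sample, varied by an SD of 0.04 to 0.09 on the log2 scale. That is not the spread between samples, which was an SD of 0.22 for the 2 WT LPS arrays. KO exceeded WT by 0.83 ± 0.14 without LPS (1.78-fold, adjusted p = 0.0384) and by 0.81 ± 0.14 with LPS (1.75-fold, adjusted p = 0.0158). With LPS it fell 2.46-fold in WT cells (-1.30 ± 0.14, adjusted p = 0.000411) and 2.51-fold in KO cells (-1.33 ± 0.14, adjusted p = 0.000480). The call with LPS was lost without KO LPS replicate 1 (0.0803) or replicate 2 (0.0704). Both other probes gave the same signs in all 4 comparisons. Their genotype differences ran from 0.63 to 1.02, and neither was called for genotype when each probe was tested by itself. In that fit the main probe was not called without LPS either (adjusted p = 0.0509 by limma). The second probe was called lower with LPS in both genotypes there. The third was called in neither (-0.47 in WT, adjusted p = 0.314, and -0.61 in KO cells, 0.228).

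Slc11a1 (NRAMP1), which pumps iron and manganese out of the phagosome and is known for its part in resistance to intracellular bacteria, differed by genotype alone. Its level was 6.05 and 6.31 in WT untreated cells, 6.16 and 6.02 in WT cells with LPS, 7.13 and 7.19 in KO untreated cells, and 7.24 and 7.21 in KO cells with LPS. The 4 KO arrays spanned 7.13 to 7.24 and the 4 WT arrays 6.02 to 6.31. KO exceeded WT by 0.98 ± 0.14 without LPS (1.97-fold, adjusted p = 0.0218) and by 1.14 ± 0.14 with LPS (2.20-fold, adjusted p = 0.00520), and the latter call held in all 23 alternatives. Its LPS changes of -0.09 ± 0.14 in WT cells and 0.07 ± 0.14 in KO cells were not called. Its WT change became called, as lower, with quantile normalization (-0.90, adjusted p = 0.00455), median centring (-0.48, 0.0456) and the deposited values (-0.92, 0.00278). Its KO change turned with the same 3 scalings and was called with quantile normalization (-0.54, 0.0380) and the deposited values (-0.55, 0.0457).

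Slc11a2 (DMT1), the transporter that moves iron across endosomal and plasma membranes, rose with LPS. On its main probe it stood at 3.38 and 3.04 in WT untreated cells, 5.19 and 5.54 in WT cells with LPS, 3.68 and 3.64 in KO untreated cells, and 5.25 and 4.96 in KO cells with LPS. Every LPS array lay above every untreated array. The rise was 2.16 ± 0.19 in WT cells (4.45-fold, adjusted p = 0.000163) and 1.45 ± 0.19 in KO cells (2.73-fold, adjusted p = 0.00127). The 2 probes differed on genotype. Without LPS the main probe, at the 3′ end, gave 0.45 ± 0.20 and the second probe, near the 5′ end, gave -0.45 ± 0.20, neither of them called. With LPS they gave -0.25 ± 0.20 and -0.76 ± 0.20 (adjusted p = 0.443 and 0.0551 with each probe tested by itself). Slc11a2 is known to have mRNA forms with different first exons and different 3′ ends, and which of them each probe detects was not tested.

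**Figure D3:**
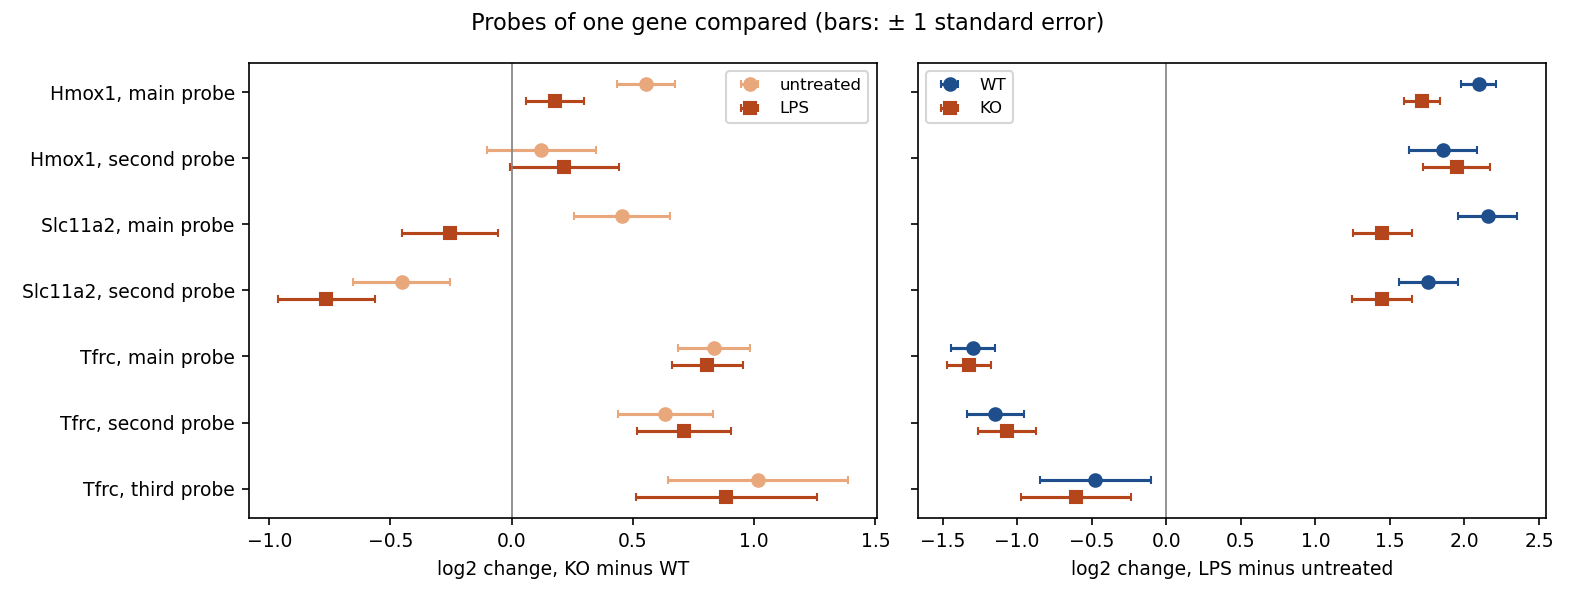
Log2 changes of the 3 genes with several probes, each probe fitted by itself, for KO against WT (left) and LPS against untreated (right), with bars of 1 SE. The Tfrc probes lie on the same side of 0 throughout, while without LPS the Slc11a2 probes lie on opposite sides, at 0.45 and -0.45.

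Fth1 and Ftl1, the heavy and light chains of ferritin, gave no call for genotype. On the scaled values Fth1 stood at 8.94 and 8.82 in WT untreated cells, 9.80 and 9.74 in WT cells with LPS, 8.55 and 8.80 in KO untreated cells, and 9.15 and 9.37 in KO cells with LPS. Ftl1 stood at 9.07 and 8.91 in WT untreated cells, 9.53 and 9.61 in WT cells with LPS, 8.51 and 8.71 in KO untreated cells, and 9.22 and 9.30 in KO cells with LPS. In both, each KO group lay below the WT group of the same treatment. With LPS the difference was -0.51 ± 0.15 for Fth1 (95% interval -0.87 to -0.15, adjusted p = 0.0666) and -0.30 ± 0.13 for Ftl1 (adjusted p = 0.179). Without LPS it was -0.20 ± 0.15 for Fth1 (adjusted p = 0.463) and -0.38 ± 0.13 for Ftl1 (adjusted p = 0.180). Fth1 with LPS was called lower under 3 of 23 alternatives, at an adjusted p down to 0.0191. With quantile normalization its difference shrank to -0.08 (adjusted p = 0.698 by limma). The sign of Ftl1 with LPS turned with quantile normalization (0.11) and the deposited values (0.03).

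The ferritin signals lay near the top of what the arrays recorded. Before scaling, Fth1 ran from 435582 to 561706 over the 8 arrays, a 1.29-fold range, and Ftl1 from 430573 to 550416, a 1.28-fold range, and together they reached 62.5% to 83.1% of the brightest probe of their array. No member spot carried a saturation flag. For LPS the 75th-percentile scaling gave Fth1 a rise of 0.89 ± 0.15 in WT cells (adjusted p = 0.00282) and 0.58 ± 0.15 in KO cells (0.0192), which quantile normalization turned to -0.05 and -0.09 and the deposited values to -0.08 and -0.06. It gave Ftl1 0.58 ± 0.13 in WT cells (adjusted p = 0.0109) and 0.65 ± 0.13 in KO cells (0.00788), which in WT cells turned to -0.31 and -0.24 under the same alternatives and in KO cells to 0.01 and -0.02. The direction of the ferritin mRNAs after LPS thus changed with the scaling. On the 75th-percentile scale the KO rises were not called without KO untreated replicate 1 (0.124 for Fth1 and 0.0638 for Ftl1) or, for Fth1, without KO LPS replicate 2 (0.106), and the WT rise of Ftl1 was not called without WT untreated replicate 2 (0.0611). Mouse ferritin genes also have many processed copies in the genome, and whether the probes bind their transcripts was not tested.

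**Figure D4:**
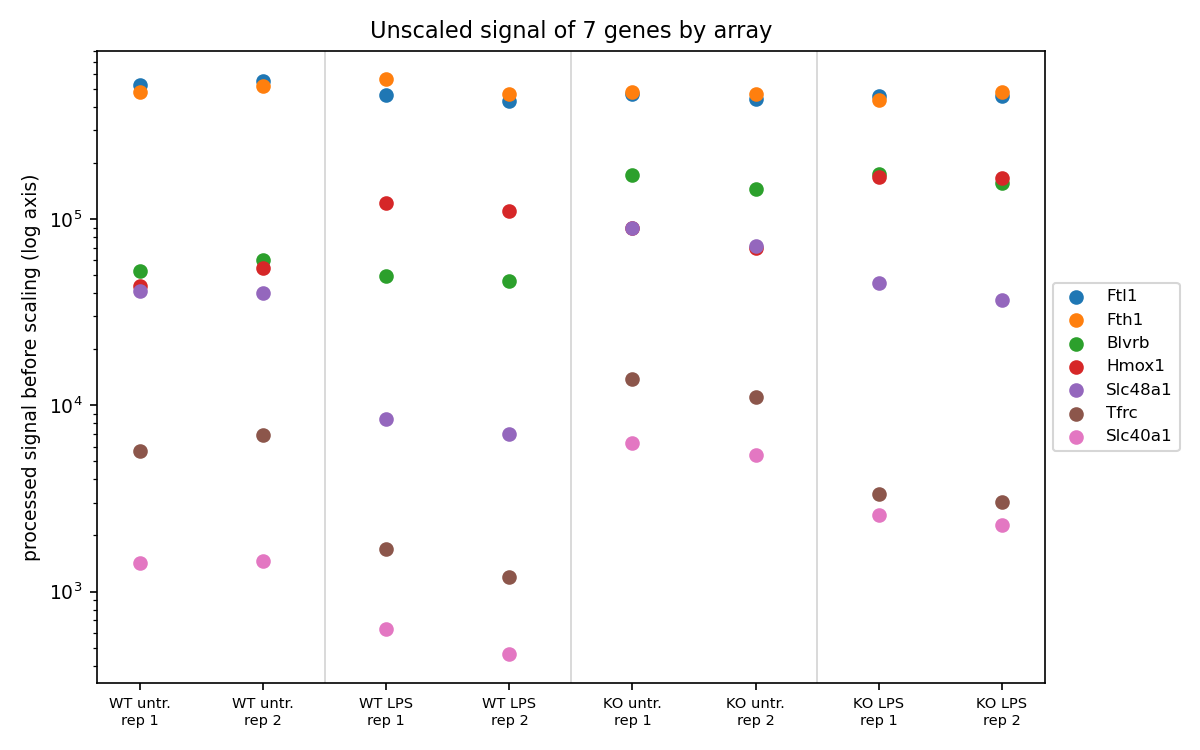
Processed signal of 7 of the 10 genes before any scaling between arrays (vertical log axis) on each of the 8 arrays (horizontal axis, grouped by genotype and treatment). Both ferritin chains form a flat band between 430573 and 561706, while Slc40a1, Tfrc and Slc48a1 range more than 11-fold.

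Fech, which inserts iron into protoporphyrin in the last step of haem synthesis, fell with LPS in both genotypes. Its level was 4.30 and 4.06 in WT untreated cells, 2.64 and 2.95 in WT cells with LPS, 4.37 and 4.36 in KO untreated cells, and 3.18 and 3.00 in KO cells with LPS. The treated and untreated arrays did not overlap in either genotype. The fall was -1.39 ± 0.16 in WT cells (2.61-fold, adjusted p = 0.000546) and -1.27 ± 0.16 in KO cells (2.41-fold, adjusted p = 0.00102). The genotype differences were 0.18 ± 0.16 without LPS and 0.30 ± 0.16 with LPS (adjusted p = 0.543 and 0.260), and the latter was called with the deposited values (0.66, adjusted p = 0.0287).

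The LPS responses were then set side by side. In WT cells 5 were called higher and 4 lower, where 58.3% of 27943 genes were called, 36.5% higher and 21.8% lower. In KO cells 5 were called higher and 3 lower, where 49% of 27938 genes were called, 28.7% higher and 20.4% lower. Most genes on the array that were tested in WT cells were thus called as well. Hmox1 and Slc11a2 rose and Tfrc, Fech and Slc40a1 fell in both genotypes under all 5 scalings compared, and Slc48a1 fell in WT cells under all 5. Blvrb rose by 0.61 ± 0.12 in WT cells (adjusted p = 0.00461) and 0.70 ± 0.12 in KO cells (adjusted p = 0.00314), but the WT change turned to -0.22 with quantile normalization and -0.18 with the deposited values, and the KO change was 0.13 and 0.08 there, not called.

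The scaling moved the whole array in these comparisons. The median log2 change of all genes was 0.32 in WT and 0.21 in KO cells with the 75th percentile, -0.06 in both with quantile normalization, and -0.59 and -0.48 with the deposited values, which are not scaled between arrays. The share called higher moved with it, from 10195 of 16296 calls in WT cells with the 75th percentile to 6993 of 15550 with quantile normalization, 6318 of 14775 with median centring and 2429 of 10834 with the deposited values, and from 8007 of 13703 calls in KO cells to 5908 of 13492, 5279 of 12776 and 2245 of 10023. Relative to the median of all genes, the WT changes were 1.84 for Slc11a2, 1.78 for Hmox1, 0.57 for Fth1, 0.29 for Blvrb and 0.26 for Ftl1. On the other side they were -0.41 for Slc11a1, -0.89 for Slc40a1, -1.61 for Tfrc, -1.70 for Fech and -1.88 for Slc48a1. In KO cells Slc48a1 stood at -0.54 on that scale and Slc11a2 at 1.24.

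**Figure D5:**
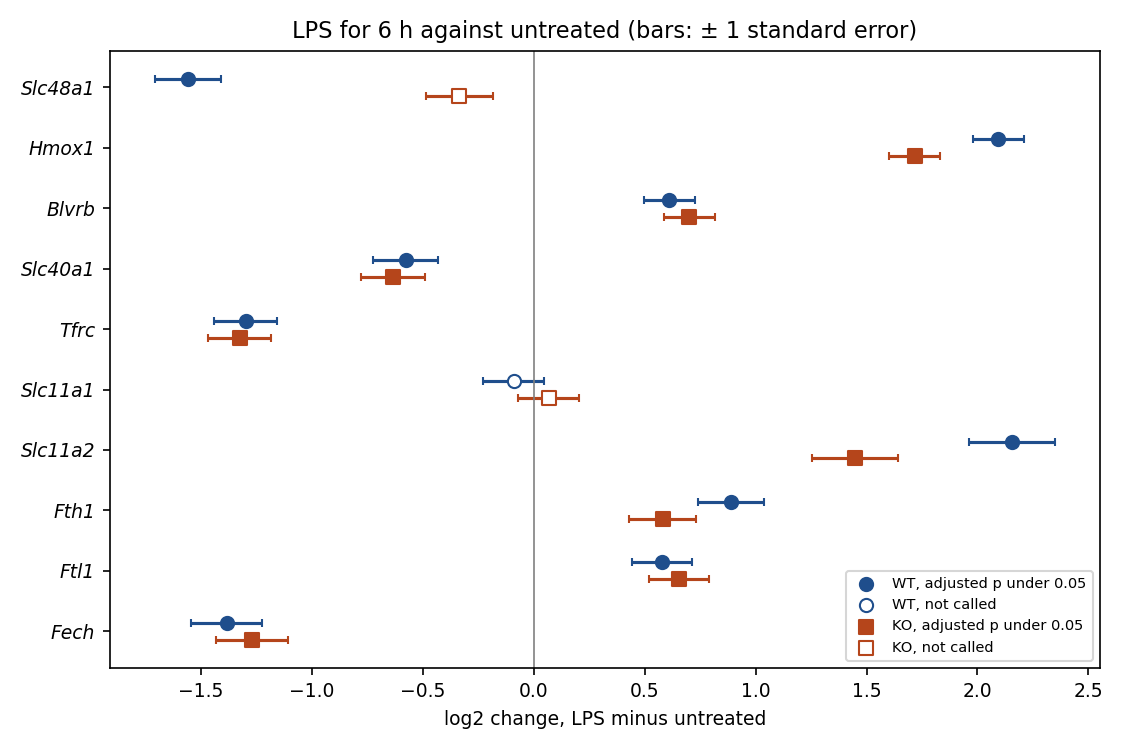
Log2 change of each gene with LPS for 6 hours against untreated (horizontal axis) in WT cells (circles) and KO cells (squares), with bars of 1 SE and filled symbols for an adjusted p under 0.05. WT and KO symbols lie close together for most genes, and Slc48a1 stands apart at -1.56 in WT and -0.34 in KO.

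Beyond Slc48a1, no member's LPS response was called different between the genotypes. The next largest differences, KO minus WT, were -0.71 ± 0.27 for Slc11a2 (95% interval -1.37 to -0.04, adjusted p = 0.203) and -0.38 ± 0.16 for Hmox1 (-0.77 to 0.01, adjusted p = 0.243). Intervals for Blvrb (-0.31 to 0.49), Slc40a1 (-0.56 to 0.44), Tfrc (-0.52 to 0.46) and Ftl1 (-0.38 to 0.54) held 0 and left room for differences of about 0.5. Those for Slc11a1 (-0.31 to 0.63), Fech (-0.44 to 0.67) and Fth1 (-0.82 to 0.21) also held 0 and reached further from it.

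The other genes of the pathway were counted by list on the 75th-percentile scale, beside 3.44% of all genes called for genotype without LPS, 16.5% with LPS, 58.3% for LPS in WT and 49% for LPS in KO cells. Of 12 haem synthesis genes besides Fech, 1 was higher in KO cells without LPS, Alas1, whose product makes the first committed precursor (1.00 ± 0.13, adjusted p = 0.0170). Among those called with LPS, the porphyrin carrier Abcb6 was higher (1.21 ± 0.12) and Abcb10 was lower (-0.81 ± 0.20, called under 2 of the 5 scalings). LPS lowered 7 of the 12 in WT and 6 in KO cells, among them Cpox (-1.91 ± 0.19 in WT and -1.60 ± 0.19 in KO). The 1 gene raised was Alas1, by 3.04 ± 0.13 in WT and 2.19 ± 0.13 in KO cells. Over the 5 scalings 7 to 11 of the 12 were called lower in WT cells.

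Haem uptake, export and breakdown was measured by 11 more genes after the filter, of 12 listed. Haptoglobin (Hp), which binds free haemoglobin, was the 1 called higher in KO cells without LPS (1.25 ± 0.23, adjusted p = 0.0432), and this call was lost with median centring and with spike-in scaling. With LPS Hp (1.29 ± 0.23), the haem chaperone Pgrmc2 (1.16 ± 0.17) and Abcc1 (0.94 ± 0.18, not called with spike-in scaling) were higher in KO cells and none was lower. After LPS 5 rose and 5 fell in WT cells and 4 rose and 5 fell in KO cells. Hp rose by 6.10 ± 0.23 in WT cells and the haem transporter family member Flvcr2 by 5.23 ± 0.21, while the haem exporter Flvcr1 fell by 2.25 on the log2 scale, at -2.25 ± 0.27. The constitutive haem oxygenase Hmox2 differed by -0.14 ± 0.20 between genotypes without LPS, which was not called.

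Of 13 tested genes of iron uptake, reduction and storage outside the 10, LPS raised 5 and lowered 2 in WT cells and raised 4 and lowered 4 in KO cells, near the share of all genes called. Ceruloplasmin (Cp), a copper ferroxidase that works with ferroportin, and transferrin (Trf) were higher in KO cells without LPS, by 1.80 ± 0.14 (adjusted p = 0.00360) and 0.90 ± 0.14 (0.0317), the latter called under 4 of the 5 scalings. LPS raised Cp by 7.95 ± 0.14 in WT and 6.44 ± 0.14 in KO cells, and the difference of -1.52 ± 0.20 was called (adjusted p = 0.0231), though not with spike-in scaling. The zinc and iron importer Slc39a14 rose by 4.01 ± 0.27 in WT and 5.07 ± 0.27 in KO cells, and the ferrireductase Steap3 fell, at -3.93 ± 0.18 and -3.79 ± 0.18. Steap4 was not well above background on any untreated array and was at least 111-fold higher with LPS in WT and at least 60.8-fold higher in KO cells. Such bounds set the mean of the bright group against the higher, on each array, of the probe's own signal and the lowest signal well above background.

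Among 10 tested genes of iron sensing and systemic control, the haemochromatosis gene Hfe was the 1 called between genotypes, higher in KO cells by 1.12 ± 0.14 without LPS (adjusted p = 0.0168) and 0.64 ± 0.14 with LPS (0.0313, not called with spike-in scaling). LPS raised Fbxl5, which marks iron-regulatory protein 2 for degradation (2.47 ± 0.12 in WT and 2.77 ± 0.12 in KO), and lowered Aco1, which encodes iron-regulatory protein 1 (-1.96 ± 0.15 and -1.50 ± 0.15), and Hfe (-2.16 ± 0.14 and -2.64 ± 0.14). The iron-regulatory protein gene Ireb2 was not called for genotype. Of 15 mitochondrial iron and iron-sulphur cluster genes, 0 were called by limma for genotype without LPS (0 also at an unadjusted p under 0.05, 15 tested) and 2 were higher in KO cells with LPS, Sfxn1 (0.96 ± 0.23) and Isca1 (0.66 ± 0.17). With LPS the count was 1 with quantile normalization, 0 with spike-in scaling and 5 with the deposited values. LPS lowered 7 and raised 3 of these in WT cells, with the iron importer Slc25a37 (mitoferrin 1) rising by 2.08 ± 0.18 and the co-chaperone Hscb falling, at -2.45 ± 0.27.

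The 7 regulators listed for haem-responsive genes gave 0 calls in limma between genotypes without LPS, and at an unadjusted p under 0.05 2 were higher and 1 lower. Nfe2l2, the gene of NRF2, differed by 0.36 ± 0.21 and Keap1 by -0.02 ± 0.17. With LPS, Bach1, the haem-sensing repressor of Hmox1 and the ferritin genes, was lower in KO cells (-1.22 ± 0.21, adjusted p = 0.0152), as was its partner Mafk (-1.63 ± 0.14, adjusted p = 0.00199), while Maff (0.90 ± 0.14) and Mafg (0.89 ± 0.18) were higher. Bach1 and Mafk were also called for the difference in LPS response (-1.70 ± 0.30 and -1.21 ± 0.19, adjusted p = 0.0377 and 0.0315), Bach1 under 3 and Mafk under 2 of the 5 scalings, and neither with median centring or spike-in scaling. Spic, a factor known for driving ferroportin in red-pulp macrophages, rose with LPS by 5.98 ± 0.22 in WT and 5.09 ± 0.22 in KO cells. Of 6 tested genes of iron sequestration in innate immunity, Lcn2, which captures bacterial siderophores, rose with LPS by 7.05 ± 0.22 in WT and 6.94 ± 0.22 in KO cells and was higher in KO cells with LPS (0.86 ± 0.22, adjusted p = 0.0462, not called with spike-in scaling). Bdh2, which makes the mammalian siderophore, was lower there (-1.93 ± 0.24, adjusted p = 0.00585).

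Promoter sequence was at hand for 5 of the 10 genes, Blvrb, Ftl1, Fth1, Slc11a1 and Tfrc, as 8 RefSeq entries on GRCm38.p6 that run from 250 bases before the start to 50 after it. The antioxidant response element to which NRF2 binds, searched as TGACNNNGC on both strands, matched 0 of the 8 entries. It matched 12.4% of all 32851 promoters of that length. The absence of a match says only that these letters are not in these windows.

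Markers of other cell types were read beside these results. The 8 macrophage markers were called between genotypes 0 times without LPS and 1 time with LPS by limma, Mertk being lower (-1.09 ± 0.13), and 2 were higher without LPS at an unadjusted p under 0.05. Their summed signal, relative to each array's 75th percentile, was 1191 to 1273 in WT and 811 to 1055 in KO untreated cells. With LPS it was 1836 to 1867 in WT and 1609 to 1660 in KO cells. On the array at 811, KO untreated replicate 2, only 7 of the 8 markers counted as well above background, against 8 on every other array. The marker that did not count there was Lyz2, which was well above background on 7 arrays. Outlier spots drop out of such sums, and whether Lyz2 did so there was not tested. The sum of 811 may therefore lack its signal. Of 12 neutrophil markers 9 were higher in KO cells without LPS, and 9 were higher and 1 lower with LPS. Over the 5 scalings 6 to 9 were called higher without LPS and 7 to 9 with LPS. Their summed signal was 61.8 to 66.2 in WT untreated, 101 to 106 in KO untreated, 136 to 146 in WT LPS and 209 to 233 in KO LPS cells, and all 12 were well above background on at least 4 arrays. They move with the same genotype contrast as Slc40a1, Blvrb, Slc48a1, Slc11a1 and Tfrc, and their part in those results was not tested. In bulk RNA, fewer cells of a type and less RNA per cell cannot be told apart.

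Red-cell precursors also express Tfrc and Fech. Of 14 erythroid markers on the array the defining genes Alas2, Ahsp and Epb42 were not well above background on any array, and the summed signal ran from 0.80 to 1.77 over all groups. Of 9 tested, 2 were higher in KO cells without LPS, Hbb-bt (1.99 ± 0.26) and Epor (1.10 ± 0.17), and Hbb-bt was lower in KO cells with LPS (-1.71 ± 0.26). Spike-in scaling left 1 of the calls without LPS. Summed over their lists, stromal markers stood at 1.40 to 1.64 without LPS, 5.03 to 5.75 in WT LPS and 10.2 to 11.0 in KO LPS cells. Of the 5 stromal markers, 2 were higher in KO cells without LPS, Cxcl12 (1.90 ± 0.26) and Pdgfrb (1.67 ± 0.20), and Pdgfrb with LPS (1.05 ± 0.20). Of the other lists, Batf3 (dendritic) was higher without LPS (1.37 ± 0.15), and with LPS Pf4 (megakaryocyte) was higher and Batf3, Zbtb46, Cd4 and Ms4a1 were lower, Cd4 and Ms4a1 under 1 scaling each. Summed megakaryocyte markers stood at 80.6 to 84.0 in WT and 111 to 117 in KO untreated cells and at 114 to 138 and 205 to 209 with LPS. Dendritic cell markers stood at 2.32 to 3.01 without LPS and 19.5 to 25.3 with it, and B and T cell markers at 11.3 to 25.6 except for KO untreated replicate 1 at 101. The part of these lists in the results was not tested.

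Cul3 itself read 2.06 in WT and 1.60 in KO untreated cells (-0.46 ± 0.11, adjusted p = 0.0905) and 2.70 and 2.18 with LPS (-0.52 ± 0.11, adjusted p = 0.0304, called under 2 of the 5 scalings). Since the deleted part of the gene is not given, this probe does not check the genotype labels. The 75th percentile of the signal lay between 553 and 1285 per array, 60.9% to 73.7% of spots were well above background, and the 2 arrays of a group had a correlation of 0.992 to 0.995 over genes (genes are no independent replicates). All 8 arrays were on 1 slide scanned once, with WT in 1 row and KO in the other and the LPS samples in the last 2 columns, which leaves genotype confounded with the row and LPS with the pair of columns, so that these cannot be told apart.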

How the data were processed

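RNA of 8 samples was labelled with Cy3 and hybridised to 1-colour Agilent arrays, 0.5 micrograms per sample per the labels' protocols. The submitters' processing notes name Agilent Feature Extraction 10.7.3.1. The deposited intensity is its processed signal, which per the file headers had a spatial background surface removed and was detrended inside each array, without scaling between arrays, and probe positions are on mm9. The deposited table of log2 values for 26670 of 55681 probes matched the log2 scanner signal of the same arrays (lowest correlation 0.996) and carries no scaling between arrays, while how its probes were selected is unknown.

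Here control spots and outlier spots were dropped, log2 signals were averaged over the spots of a probe, and each array's 75th percentile over probes was subtracted. Probes had to be well above background on the 2 arrays of some group, and each gene was read from its brightest such probe. One limma 3.58.1 model (R 4.3.3) with a mean for each of the 4 groups was fitted to all 8 arrays, with 4 residual and 2.29 prior degrees of freedom, empirical Bayes moderation and Benjamini-Hochberg adjustment over all genes, with a threshold of 0.05. The scripts were tested on simulated data. The precision is set by 2 arrays per group.

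Names came from the files and RefSeq: 26056 probes were matched by accession, 3200 by symbol and 930 by synonym, and 25495 kept the file's name. The 10 genes, the other gene lists and the markers were chosen with earlier results of these data known. The text names all 10 genes, Cul3 and, of each list and comparison, up to 4 called genes with the largest change, some dropped for length and some not reported here. Blvra, Hmox2, Aco1, Ireb2 and Nfe2l2 lie outside that rule and were named after their values were seen, and the AATAAA search was chosen after the sequences were seen. Same-numbered replicates did not deviate together (correlations -0.19 to 0.03), so no block was used in the main model. Alternatives covered scaling, background correction, filters, probe choice, arrays in the fit, blocks, moderation, threshold and leaving out each array. Scaling to the spike-in probes and a crossed replicate block were added after the data were seen.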

Additional observations from a re-analysis of the deposited data

Results flagged for a closer look

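The LPS response of Slc48a1 differed between the genotypes in the limma interaction term, by 1.23 ± 0.21 on the log2 scale (KO minus WT, adjusted p = 0.0356). Slc48a1 changed by -1.56 ± 0.15 with LPS in WT cells and by -0.34 ± 0.15 in KO cells. The adjusted p was between 0.00417 and 0.163 over 21 alternatives, and the difference was between 1.09 and 1.50. No group held enough samples for a test of single outlying arrays.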

How the results depend on the processing

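With 2 arrays per group and 4 residual degrees of freedom, the calls without LPS and the difference of responses were the least stable. For each value here the cause was not tested. Of 28 called results, 603 values under the alternatives comprised 509 that kept direction and call, 85 that lost the call and 9 that reversed. Of 22 uncalled results, 477 values comprised 441 unchanged in both, 13 that gained a call and 23 that reversed. Without LPS, 5 of the 10 genes were called between genotypes, against 3 with median centring, 2 with no filter, 3 with each probe tested by itself, 2 with only the 4 arrays of the comparison, 2 with a replicate block, 1 with the slide column as a block, 2 at a threshold of 0.01 and 2 with spike-in scaling. The difference of responses gave 1 called gene, and 0 with no filter, the replicate block, the slide column, the threshold of 0.01 or spike-in scaling. Leaving out 1 array gave 1 to 5 called genes without LPS, 4 to 5 with LPS, 8 to 9 for LPS in WT, 5 to 8 for LPS in KO and 0 to 1 for the difference.

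Over all genes, the 962 calls without LPS became 139 with the slide column, 376 with the replicate block, 388 with no filter, 566 with only the 4 arrays or with spike-in scaling, 200 at a threshold of 0.01, 1893 with trended moderation, 2311 with normexp and 118 to 1515 without 1 array. The 4600 calls with LPS became 789 with only the 4 arrays, 1159 with the slide column, 2817 with the replicate block, 2863 with no filter, 1327 at a threshold of 0.01 and 1500 to 4245 without 1 array. The 1257 calls of the difference became 0 with the slide column, 132 with the replicate block, 196 with no filter, 32 at a threshold of 0.01, 421 with spike-in scaling, 547 with the deposited values, 1880 with the filter on all arrays, 2288 with trended moderation, 2443 with normexp and 0 to 2317 without 1 array. Of these calls 440 of 1257 were higher, against 563 of 1251 with quantile normalization, 395 of 861 with median centring and 271 of 547 with the deposited values.

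The reversed values, as log2 changes, were as follows. With quantile normalization Ftl1 gave 0.11 between genotypes with LPS, Blvrb -0.22, Fth1 -0.047 and Ftl1 -0.31 for LPS in WT, and Slc11a1 -0.54 and Fth1 -0.091 for LPS in KO. With median centring Slc11a1 gave -0.23 for LPS in KO, and Slc40a1 0.033 and Tfrc 0.063 for the difference. With the deposited values Slc11a2 gave 0.084 and Ftl1 0.028 between genotypes with LPS, Blvrb -0.18, Fth1 -0.077 and Ftl1 -0.24 for LPS in WT, Slc11a1 -0.55, Fth1 -0.065 and Ftl1 -0.020 for LPS in KO, and Slc40a1 0.22, Tfrc 0.21 and Fth1 0.013 for the difference. The mean of a gene's probes gave Slc11a2 -3.37e-05 between genotypes without LPS. Spike-in scaling gave 0.058 for Slc40a1 and 0.089 for Tfrc in the difference. Without 1 array, Slc11a1 for LPS in WT ran from -0.22 to 0.039, and the differences from -0.18 to 0.069 for Slc40a1, -0.18 to 0.13 for Tfrc, -0.024 to 0.18 for Ftl1 and -0.039 to 0.27 for Fech.

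Replicate numbers named the samples and did not pair them. The replicate block called 2 genes without LPS, 5 with LPS, 9 and 8 for LPS in WT and KO, and 0 for the difference. A crossed block, added after the data were seen because 1 pair of groups correlated at -0.19, called 5 genes with LPS and 3751 of all genes. The slide column was fitted for genotype and the difference only, and the fits to 4 arrays do not give the difference.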
